A study of Homo sapiens with 8 samples.

Results

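Iron homeostasis was examined through 8 genes, chosen by name: the ferritin subunits FTH1 and FTL, the iron importers TFRC and SLC11A2, the exporter SLC40A1, the iron-regulatory proteins ACO1 and IREB2, and the ferritin cargo receptor NCOA4. All 8 were found, as 1 row each, among the 58302 genes that the input RNA and footprint tables list. The cells were MOLM-13, a human acute myeloid leukaemia line grown in culture. They carried a hairpin called sh-circMYBL2 in the series design (the sample titles spell it Sh-cricMY1), directed at a circular RNA of the MYBL2 gene, or the control hairpin sh-NC. The 8 libraries form 4 groups of 2, footprints and input RNA for each hairpin, and the labels give no time, dose or iron treatment. The series title asks about translation of the receptor kinase FLT3, and iron was not its subject. A single hairpin against the circle and a single line limit the design, and the labels do not say whether the pair in a group were separate cultures. The p-values therefore reflect the spread between those libraries alone, and it may be technical.

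Cells set the levels of these proteins largely after transcription. When iron is scarce, the iron-regulatory proteins (IRP1, the product of ACO1, and IRP2, the product of IREB2) bind a hairpin in the mRNA called the iron-responsive element (IRE). An IRE near the start of the ferritin and SLC40A1 mRNAs then blocks the loading of ribosomes, whereas IREs in the 3′ untranslated region of TFRC, and of some SLC11A2 transcripts, protect those mRNAs from decay. When iron is plentiful, IRP1 takes up an iron-sulfur cluster and works as a cytosolic aconitase, and IRP2 is degraded. NCOA4 carries ferritin to the lysosome, where its iron is released. Footprints, the mRNA fragments that ribosomes cover, divided by RNA are therefore the measure in which control through a 5′ IRE would appear, while control through a 3′ IRE would appear in RNA.

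The IRE of FTL lies at the start of its mRNA and is shown because it carries the loop that the iron-regulatory proteins recognise. That of ALAS2, the erythroid enzyme that starts haem synthesis, is shown beside it as a second IRE of known function. Both were read from RefSeq start windows of GRCh38.p14, as DNA letters on the transcribed strand, with the loop of 6 bases in capitals. The FTL site (chr19:48965335-48965358, plus strand) covers bases 27 to 50 of the transcript and stops where the window ends, inside the closing stem. The ALAS2 site (chrX:55030941-55030969, minus strand) covers bases 9 to 37.
FTL: ctcttgcttcaaCAGTGTttggac
ALAS2: ttcgttcgtcctCAGTGCagggcaacagg

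These sites were found with the letters CNNNNNCAGTGN on the transcribed strand in the first 50 bases after the start, which 586 of 35116 windows held (1.67%). With all 5 positions of the upper stem paired, G-T pairs allowed, 8 windows remained (0.0228%), and FTL and ALAS2 were among them. Windows were matched for 7 of the 8 iron genes (12 windows), and FTH1 had none. Among those 7 genes the paired form was found in 1, FTL. IREs in a 3′ untranslated region, or beyond base 50, lay outside this search, so a gene without a match may still carry one. A match describes these letters and does not measure binding.

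The libraries differed greatly in depth. Read numbers recovered from the tables gave 13507025 to 14605825 reads on genes in the RNA libraries, against 222851 and 715081 reads in the sh-circMYBL2 footprint libraries (called a and b, since their columns do not name a replicate) and 80152 and 300373 in sh-NC footprint libraries 1 and 2. MicroRNA genes held 32.8% and 12.2% of footprint reads with sh-circMYBL2 and 42.7% and 57.2% with sh-NC. The iron genes held 212 and 1342 reads in the sh-circMYBL2 footprint libraries and 38 and 166 in the sh-NC ones, which is 0.169% and 0.230%, and 0.113% and 0.187%, of protein-coding reads. In RNA they held 0.153% to 0.157% in every library. Of 13 myeloid marker genes of this line 12 passed the filter on low RNA values, led by LYZ (lysozyme; 729.5 ± 35.2 FPKM with sh-circMYBL2, 581 ± 33.6 with sh-NC). Of those 12, 4 rose (CD4, FLT3, ITGAM and CEBPA) and 0 fell, beside 4.92% of all genes called higher and 3.96% lower. The summed myeloid level was 1070 and 1030 FPKM with sh-circMYBL2 and 872 and 831 FPKM with sh-NC. Most of that sum was LYZ (754 and 705, and 604 and 557 FPKM), which was itself not called (limma, adjusted p = 0.0554). The part of the myeloid level in the RNA results below was not tested. None of 13 erythroid, 9 lymphoid or 7 tissue macrophage markers reached the RNA filter. In footprints 1 lymphoid marker, CD3D, passed the filter, on 2 reads in sh-circMYBL2 library a. Summed lymphoid RNA was 0.45 and 0.71 FPKM with sh-circMYBL2 and 0.455 and 1.14 with sh-NC, and summed macrophage RNA 0.198 and 0.33, and 0.192 and 0.675. The summed erythroid level was 0.0732 to 0.209 FPKM with sh-circMYBL2 and 0.0843 to 0.107 FPKM with sh-NC, and 6 of those 13 genes were at 0 in every RNA library.

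RNA of 2 of the 7 iron genes tested differed between the hairpins, each by a small amount. NCOA4 rose and FTH1 fell with sh-circMYBL2, and the other 5 did not pass (limma, adjusted p under 0.05 over 12489 genes, values on the log2(FPKM + 1) scale). Over all genes 4.92% were called higher and 3.96% lower, so 1 call each way among 7 is a description of these genes and of nothing particular to them. No iron gene passed in the footprints, where limma called 0% of 9431 genes higher and 0% lower, or in translational efficiency (TE, the footprint change beyond the RNA change), where 5.05% of 8260 genes were called higher and 0.266% lower. At an unadjusted p under 0.05, 0 of 7 iron genes and 1212 genes in all differed in footprints, and 2 of 7 (ACO1 and IREB2) and 1618 in all in TE. With voom on recovered reads, no iron gene was called in either comparison, while 6 genes were called higher and 50 lower in footprints. In bulk libraries, fewer cells that use a gene and less RNA in each cell cannot be told apart.

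**Figure D1:**
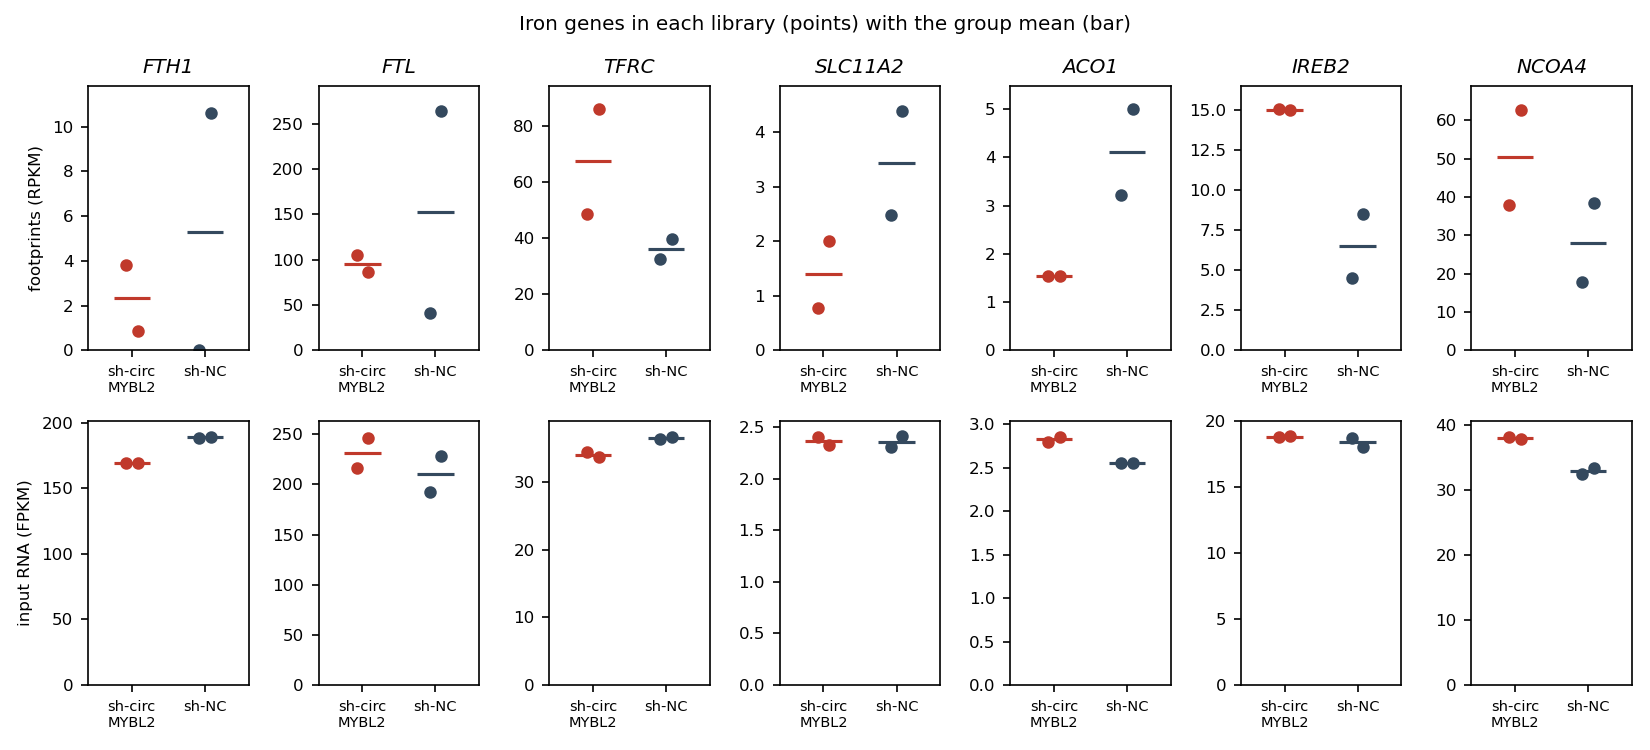
Footprints (RPKM, top row) and input RNA (FPKM, bottom row) of 7 iron genes, each point a library and each bar the mean of 2. SLC40A1 is left out, with no footprint read. RNA points of a group lie close together, for example 169.6 and 168.9 FPKM of FTH1 with sh-circMYBL2, while footprints of FTL ran from 41.5 to 264 RPKM within sh-NC.

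FTH1 (ENSG00000167996, chromosome 11, 61964285 to 61967634) encodes the heavy ferritin subunit, the ferroxidase that oxidises iron for storage. Its RNA was 169.6 and 168.9 FPKM in the sh-circMYBL2 libraries and 188.6 and 189.2 FPKM in the sh-NC libraries. All values with sh-circMYBL2 lay below all values with sh-NC, and the log2 change was -0.16 (95% interval -0.23 to -0.08, SE 0.03, adjusted p = 0.0491). That call stood close to the threshold. Pseudocounts of 0.1 and 5 ended it (adjusted p = 0.0501 and 0.0507), and by voom it held (adjusted p = 0.000805). In RNA, voom called 1705 of 12489 genes higher and 1561 lower, against 615 and 494 in the main fit, so a call by voom adds little. With any single RNA library left out limma called 0 genes of any kind, so those fits (adjusted p between 0.172 and 0.187) do not bear on the call, and the FTH1 change in them was -0.16 to -0.15.

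FTH1 had almost no footprints beside this RNA. There were 2 reads in each sh-circMYBL2 library (3.81 and 0.885 RPKM), and 0 and 4 reads in the sh-NC libraries (0 and 10.6 RPKM). In the sh-NC library with no read, 3 reads would have been 18.0 RPKM, so a level of up to that size cannot be told from 0 there. The log2 footprint change of -0.18 had a 95% interval of -4.20 to 3.84, and the TE change of -0.02 one of -3.98 to 3.94. Neither interval sets a useful limit on the change of FTH1, and both changes turned positive without sh-NC footprint library 2 (1.59 and 1.75) and without sh-circMYBL2 library b (0.50 and 0.65). Without sh-NC library 1 they were -1.95 and -1.79.

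The low footprint level was shared by both hairpins. FTH1 had 0.0139 RPKM of footprints per FPKM of RNA with sh-circMYBL2 and 0.0281 with sh-NC. The 2 tables were scaled separately, so such ratios order genes within a hairpin and were not tested. Both tables use the same length for a gene, whereas ribosomes cover mainly the coding part of an mRNA. A gene with a larger untranslated part thus ranks lower here and in the ratios below, and this was not corrected for. Of 5289 protein-coding genes with a mean RNA of at least 5 FPKM, 47 lay lower than FTH1 with sh-circMYBL2 and 679 with sh-NC. Among the 194 genes with at least 100 FPKM, 13 lay lower over all libraries. They include RPL39 (0.000949), MT-ATP6 (0.00325), RPS12 (0.00884) and TMSB4X (0.0122), named after their values were seen. RPL39 and RPS12 encode ribosomal proteins, a class with many processed gene copies. FTH1 also has such copies, and 25 FTH1 pseudogene rows held 1336 RNA reads beside 20379 of FTH1 itself (6.15% of both), led by FTH1P2 (mean 33.7 FPKM) and FTH1P3 (8.83 FPKM). None of the 25 rows had a footprint read. How reads matching several copies were counted is not given in the sources used here, and footprints are shorter than RNA fragments; the part of this in the low FTH1 footprints was not tested.

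FTL (ENSG00000087086, chromosome 19, 48965309 to 48966879) encodes the light ferritin subunit, which helps to lay down the iron core. Its RNA was 217 and 246 FPKM with sh-circMYBL2 and 192 and 228 FPKM with sh-NC. The groups overlapped, and the change of 0.14 (SE 0.11, 95% interval -0.16 to 0.44) did not pass (adjusted p = 0.461). FTL footprints were 105.6 and 85.9 RPKM with sh-circMYBL2 (24 and 84 reads) and 41.5 and 264 RPKM with sh-NC (3 and 43 reads). Both sh-circMYBL2 values thus lay between the 2 sh-NC values, of which the lower rests on 3 reads. The footprint change was -0.14 (SE 0.98) and the TE change -0.28 (SE 1.14, adjusted p = 0.918). Its sign depended on which sh-NC library was kept. Without library 1 the TE change was -1.60 (adjusted p = 0.0134), and without library 2 it was 1.04 (adjusted p = 0.0253). In such fits 1 footprint library stands for its group and is assumed to vary like the others. They called 2186 genes higher and 934 lower, and 3723 higher and 1230 lower, so a call in them has little weight.

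FTL had more footprints per RNA than FTH1 with either hairpin. It had 0.414 RPKM per FPKM of RNA with sh-circMYBL2 and 0.726 with sh-NC. Within a library, where no scaling enters, FTH1 footprints per length were 0.036 and 0.0103 of those of FTL with sh-circMYBL2 and 0 and 0.0402 with sh-NC. The same ratio in RNA was 0.783 and 0.686 with sh-circMYBL2, and 0.981 and 0.829 with sh-NC. The IRE shown above is that of FTL, and FTL had footprint reads in every library. Its 16 pseudogene rows held 8 RNA reads beside 10906 of FTL, and 1 footprint read beside 154.

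TFRC (ENSG00000072274, chromosome 3, 196049284 to 196082090) encodes transferrin receptor 1, through which dividing cells take up most of their iron. Its RNA was 34.4 and 33.7 FPKM with sh-circMYBL2 and 36.4 and 36.7 FPKM with sh-NC, without overlap. The change of -0.10 (SE 0.03, 95% interval -0.19 to -0.01) did not pass (adjusted p = 0.138). By voom, with the many calls given for FTH1, it did (adjusted p = 0.0403). Footprints of TFRC were 48.5 and 86.1 RPKM with sh-circMYBL2 (99 and 756 reads) and 32.4 and 39.6 RPKM with sh-NC (21 and 58 reads). They were higher in both sh-circMYBL2 libraries than in both sh-NC libraries, and the means stood at a ratio of 1.87. This difference of 0.83 (SE 0.47, 95% interval -0.44 to 2.11) did not pass (adjusted p = 0.587). The TE change was 0.93 (SE 0.44, adjusted p = 0.322). Without sh-circMYBL2 library a it was 1.34 and without library b 0.53.

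SLC11A2 (ENSG00000110911, chromosome 12, 50952263 to 51028886) encodes DMT1, which moves ferrous iron across the gut and endosomal membranes. Its RNA was 2.41 and 2.33 FPKM with sh-circMYBL2 and 2.30 and 2.41 FPKM with sh-NC, a change of 0.00 (SE 0.08, 95% interval -0.21 to 0.21). Footprints were 0.786 and 2.01 RPKM with sh-circMYBL2 (2 and 22 reads) and 2.47 and 4.39 RPKM with sh-NC (2 and 8 reads). Both were lower with sh-circMYBL2, on very few reads, and neither the footprint change (-0.90, SE 0.74, adjusted p = 0.639) nor the TE change (-0.90, SE 0.55, adjusted p = 0.460) passed. Transcripts of SLC11A2 with and without an IRE are counted together in a gene row and were not separated.

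SLC40A1 (ENSG00000138449, chromosome 2, 189560590 to 189580786) encodes ferroportin, the iron exporter of macrophages and gut cells. It had 1 RNA read in sh-circMYBL2 library 1 (0.0166 FPKM) and was listed at 0 in the other RNA libraries and in every footprint library. It passed no filter and was not tested.

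ACO1 and IREB2, which encode the regulators themselves, had footprints that differed in opposite directions, and neither difference passed the threshold. ACO1 (ENSG00000122729, chromosome 9, 32384643 to 32454769) had 1.53 and 1.55 RPKM with sh-circMYBL2 (3 and 13 reads) and 3.22 and 4.99 RPKM with sh-NC (2 and 7 reads), which do not overlap. The footprint change was -0.99 (SE 0.69, adjusted p = 0.627). The TE change was -1.09 (SE 0.42, 95% interval -2.13 to -0.05, adjusted p = 0.233). ACO1 RNA was 2.79 and 2.85 FPKM with sh-circMYBL2 and 2.55 and 2.56 FPKM with sh-NC, a change of 0.11 (SE 0.07, adjusted p = 0.388).

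IREB2 (ENSG00000136381, chromosome 15, 78437431 to 78501453) had nearly equal RNA in both groups, 18.8 and 18.9 FPKM with sh-circMYBL2 and 18.8 and 18.04 FPKM with sh-NC (0.03, SE 0.04, 95% interval -0.07 to 0.14). Its footprints were 15.01 and 14.96 RPKM with sh-circMYBL2 (42 and 180 reads) and 4.50 and 8.47 RPKM with sh-NC (4 and 17 reads). The sh-circMYBL2 libraries gave almost the same value and lay above both sh-NC libraries, with a ratio of means of 2.31. The footprint change was 1.15 (SE 0.57, 95% interval -0.41 to 2.71, adjusted p = 0.544) and the TE change 1.11 (SE 0.43, 95% interval 0.04 to 2.19, adjusted p = 0.237). For these 2 genes, the TE change passed when a sh-NC footprint library was left out. ACO1 was then at -1.34 without library 1 (adjusted p = 0.00930) and -0.84 without library 2 (adjusted p = 0.0188), and IREB2 at 0.72 (adjusted p = 0.0157) and 1.51 (adjusted p = 0.00116), in the fits with many calls described for FTL.

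NCOA4 (ENSG00000266412, chromosome 10, 46005088 to 46030623), the receptor that delivers ferritin to lysosomes, had the smallest RNA p of the 7 genes (0.00331). It had 38.06 and 37.85 FPKM with sh-circMYBL2 and 32.4 and 33.3 FPKM with sh-NC, without overlap. The rise was 0.20 (SE 0.03, 95% interval 0.11 to 0.29, adjusted p = 0.0444). This call too stood close to the threshold. By voom, with the many calls given for FTH1, it held (adjusted p = 0.000708). With no filter (adjusted p = 0.0935) or eBayes without trend (adjusted p = 0.111) it was lost. In the fits without a single RNA library, which called no gene, the change was 0.18 to 0.22 (adjusted p between 0.132 and 0.176). NCOA4 footprints were 37.9 and 62.8 RPKM with sh-circMYBL2 (40 and 285 reads) and 17.9 and 38.3 RPKM with sh-NC (6 and 29 reads). The groups overlapped slightly, and the changes of 0.87 in footprints (SE 0.58, adjusted p = 0.627) and 0.67 in TE (SE 0.59, adjusted p = 0.620) did not pass. Without sh-NC library 1 these were 0.34 and 0.14, and without library 2 they were 1.40 and 1.20.

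**Figure D2:**
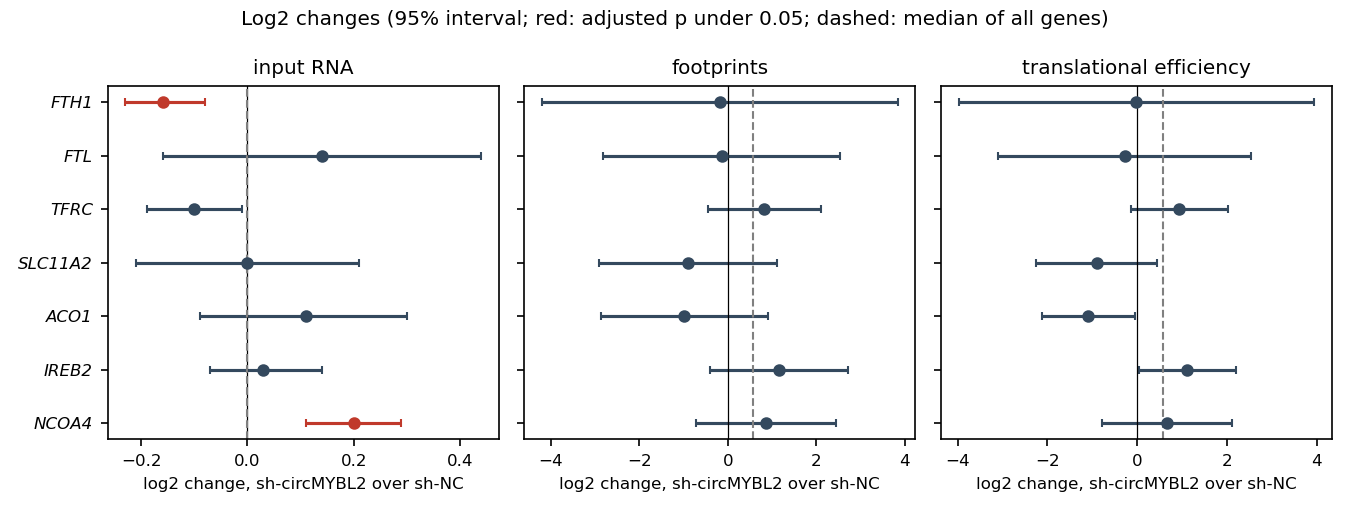
Log2 change of sh-circMYBL2 over sh-NC for 7 iron genes (points) with the 95% interval of the limma fit (bars), in input RNA, footprints and TE; the dashed line is the median of all genes tested, 0.56 in footprints and 0.57 in TE. The RNA axis is much narrower than the others: the RNA interval of FTH1 runs from -0.23 to -0.08 and its footprint interval from -4.20 to 3.84.

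Taking the 7 tested genes as a list, footprints of TFRC and IREB2 were higher without overlap between the groups (28.6%, against 30.7% of all genes tested) and those of SLC11A2 and ACO1 lower (28.6%, against 10.9%). A gene with no read in a sh-NC library cannot be lower without overlap, and the 10.9% covers many such genes. These shares were not tested. In RNA, ACO1, IREB2 and NCOA4 were higher without overlap (42.9%, against 30.0%) and FTH1 and TFRC lower (28.6%, against 30.7%). The median log2 change of the list was 0.03 in RNA, -0.14 in footprints and -0.02 in TE, beside 0.00, 0.56 and 0.57 over all genes. The medians over all genes include many without a read in sh-NC. Among the 4438 and 4200 genes with footprints in every footprint library they were -0.01 and 0.03. TFRC, IREB2 and NCOA4 lay above either reference in footprints, whereas FTH1, FTL, SLC11A2 and ACO1 lay below either. The fold of each gene was not tested against these medians.

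**Figure D3:**
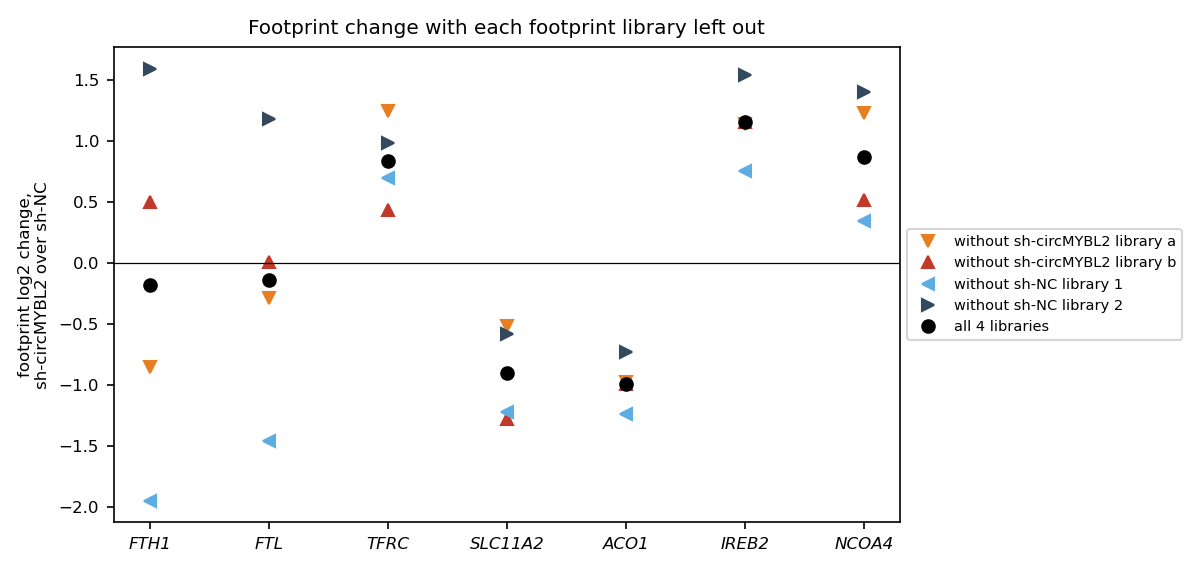
Footprint log2 change (vertical axis, sh-circMYBL2 over sh-NC) of 7 iron genes with all 4 footprint libraries (circle) and with each left out in turn (triangles). TFRC, IREB2 and NCOA4 stay above 0 and SLC11A2 and ACO1 below 0 in all of these fits, while FTH1 runs from -1.95 to 1.59 and FTL from -1.46 to 1.18. For TFRC, IREB2, SLC11A2 and ACO1 the groups do not overlap, so leaving out a library could not change the sign.

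The order of the genes was much the same with either hairpin. In RNA per length, FTL (231 ± 20.9 FPKM with sh-circMYBL2, 210.2 ± 25.5 with sh-NC; SD, n = 2 each) stood above FTH1 (169 ± 0.457 and 189 ± 0.458), followed by NCOA4 and TFRC, then IREB2 (18.9 ± 0.0588 and 18.4 ± 0.519), ACO1 and SLC11A2. TFRC and NCOA4 changed places. With sh-circMYBL2, TFRC RNA was 0.904 and 0.891 of that of NCOA4, and with sh-NC it was 1.13 and 1.10. In footprints per length, FTL (95.7 ± 13.9 and 153 ± 157 RPKM) was followed by TFRC (67.3 ± 26.6 and 36.0 ± 5.13), NCOA4 (50.3 ± 17.6 and 28.1 ± 14.4) and IREB2 (15.0 ± 0.0356 and 6.49 ± 2.81). Neighbours in that order whose libraries overlapped were TFRC and NCOA4 with either hairpin, and FTL and TFRC with sh-circMYBL2. With sh-NC the libraries of IREB2 also overlapped those of FTH1 and ACO1. FTH1, ACO1 and SLC11A2 came last, at 1.40 to 2.34 RPKM with sh-circMYBL2 and 3.43 to 5.31 RPKM with sh-NC, and were not separable from each other.

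Set as footprints per RNA, TFRC came first with sh-circMYBL2 and ACO1 with sh-NC. TFRC had 1.97 RPKM per FPKM with sh-circMYBL2, above 3214 of 3578 protein-coding genes with a mean of at least 5 in both tables, and 0.984 with sh-NC, above 2320 of them. NCOA4 stood at 1.33 and 0.855, and IREB2 at 0.795 and 0.352. SLC11A2 stood at 0.591 with sh-circMYBL2 and 1.46 with sh-NC, and ACO1 at 0.545 and 1.61, on 24, 10, 16 and 9 footprint reads. The median of those 3578 genes was 0.845 with sh-circMYBL2 and 0.688 with sh-NC. Below it lay FTH1, FTL, SLC11A2, ACO1 and IREB2 with sh-circMYBL2 (5 of 7), and FTH1 and IREB2 with sh-NC (2 of 7, or 4 without sh-NC footprint library 2).

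**Figure D4:**
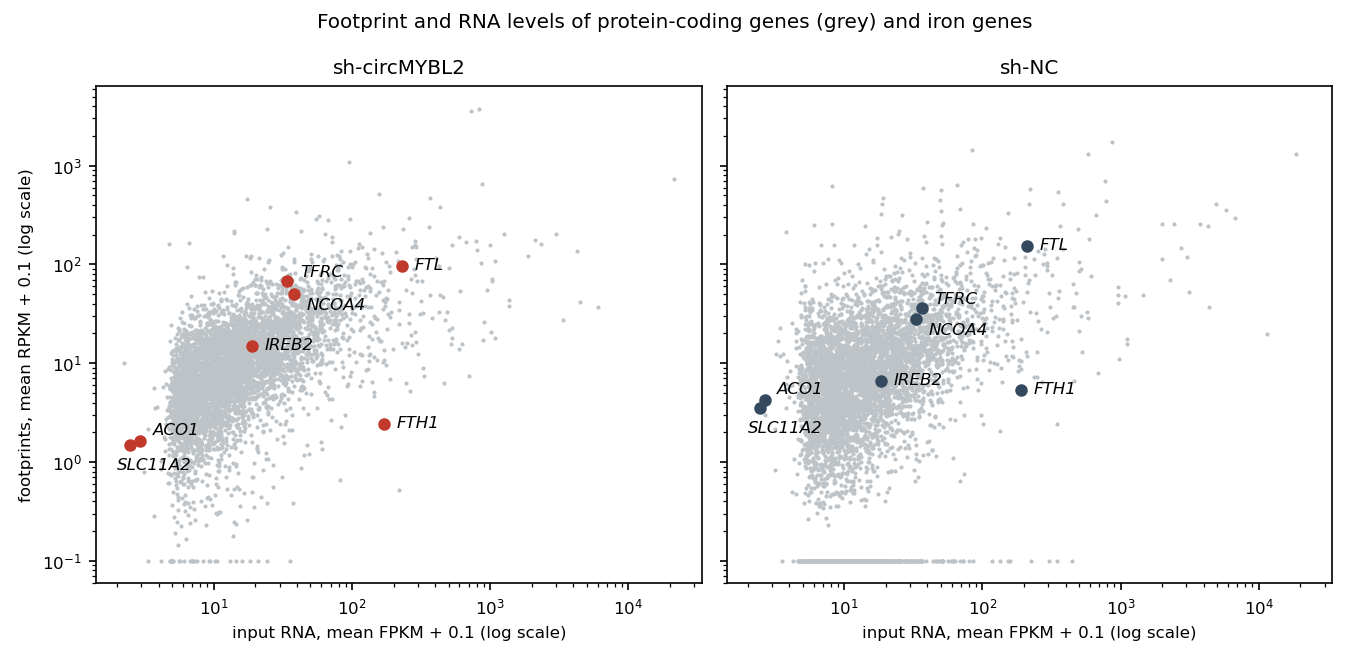
Mean footprints (RPKM + 0.1) against mean input RNA (FPKM + 0.1), both on log axes, for protein-coding genes with a mean RNA of at least 5 FPKM (grey) and 7 iron genes (coloured), with sh-circMYBL2 (left) and sh-NC (right). FTH1 lies far below most grey points of like RNA level with sh-circMYBL2, and less far below them with sh-NC, and the row of grey points at the bottom, longer with sh-NC, holds genes with no footprint read.

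Other genes of iron handling were drawn from 4 lists, whose RNA counts stand beside 4.92% of all genes called higher and 3.96% lower. Of 12 tested genes of iron uptake, export and their control, 0 rose and 1 fell in RNA (median 0.05). SLC25A37, which encodes mitoferrin 1, the mitochondrial iron importer, had 22.98 ± 0.558 FPKM with sh-circMYBL2 and 28.9 ± 0.491 with sh-NC (-0.32, SE 0.04, adjusted p = 0.0258). Of 15 genes of haem synthesis, transport and breakdown, 2 rose and 0 fell (median 0.12). PGRMC1, a haem-binding membrane protein, had 10.03 ± 0.641 FPKM with sh-circMYBL2 and 6.39 ± 0.435 with sh-NC (0.58, adjusted p = 0.0286), and TMEM14C, which carries a haem precursor into mitochondria, 169 ± 7.93 FPKM with sh-circMYBL2 and 128.5 ± 7.85 with sh-NC (0.39, adjusted p = 0.0402). Of 24 genes of iron-sulfur cluster assembly, 0 rose and 1 fell (median 0.00). HSPA9, the mitochondrial chaperone mortalin, had 97.9 ± 1.54 FPKM with sh-circMYBL2 and 141 ± 1.79 with sh-NC (-0.52, SE 0.03, adjusted p = 0.0104). Of the other IRE mRNAs, CDC14A (-0.08, adjusted p = 0.563) reached the filter and did not pass, and ALAS2 did not reach it.

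In footprints none of these genes passed, and 10 of 50 tested in the 4 lists had an unadjusted p under 0.05, beside 1212 of all 9431. In TE, 2 haem genes of 15 (UROD, uroporphyrinogen decarboxylase, and PGRMC1) and 3 iron-sulfur genes of 20 (among them NFS1, the cysteine desulfurase, and NUBP1, a cytosolic scaffold) rose, and 0 fell, beside 5.05% of all genes called higher and 0.266% lower. None of 11 iron uptake and export genes passed (PCBP1, an iron chaperone, at 0.43 and SNX3 at 0.91 by the naming rule). All 5 called genes were at 0 footprint reads in both libraries of sh-NC. With sh-circMYBL2 there were 36 reads of PGRMC1, 31 of NFS1, 19 of UROD and 10 of NUBP1. Relative to 3 reads in the sh-NC libraries together, taken as the floor, the level was 2.11 times the floor for PGRMC1, 1.90 for NFS1, 1.16 for UROD and 0.666 for NUBP1. None of the 5 was called by voom, with a pseudocount of 5 or with a filter of 5 on the mean. The median TE change of the lists was 0.31 (uptake and export), 0.77 (haem) and 1.23 (iron-sulfur), beside 0.57 over all genes.

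**Figure D5:**
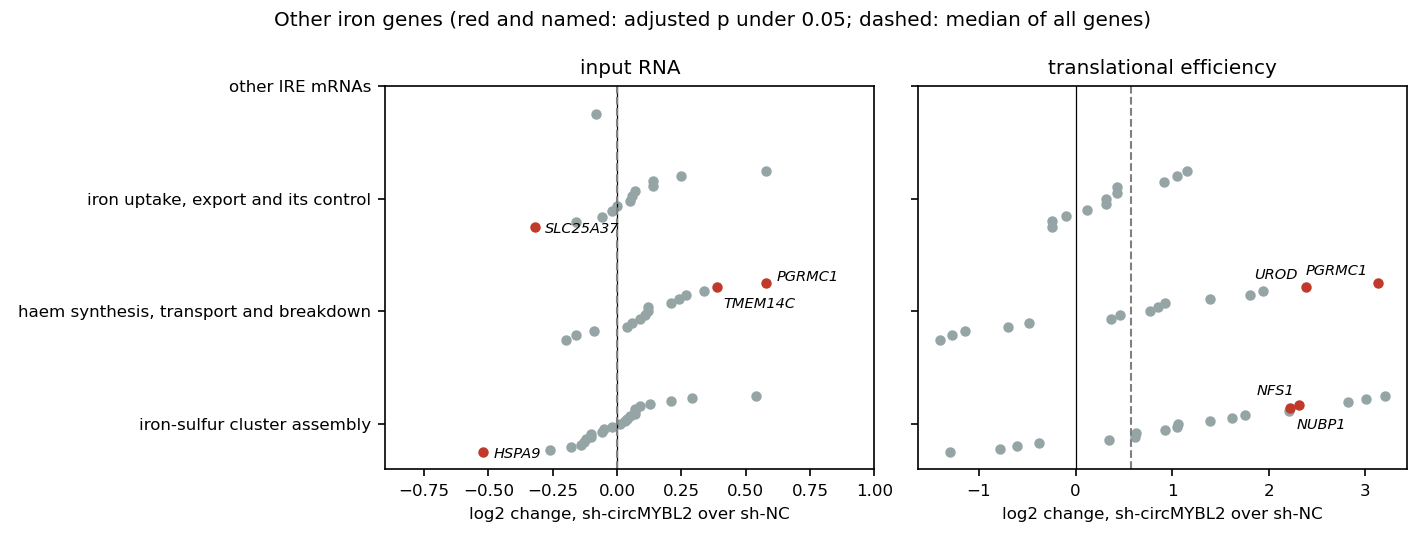
Log2 change (horizontal axis, sh-circMYBL2 over sh-NC) of tested genes of 4 iron lists (points, sorted within a list; genes not reported here are left out) in input RNA (left) and TE (right). Red points with names passed an adjusted p of 0.05: SLC25A37, TMEM14C, PGRMC1 and HSPA9 in RNA, and UROD, PGRMC1, NFS1 and NUBP1 in TE.

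Genes with the most similar pattern over the 8 libraries were sought by Pearson's r of log2 values standardised within each table, among 3577 or 3578 protein-coding genes with a mean of at least 5 in both tables. For TFRC they were BCAT1 (0.991), a branched-chain aminotransferase, CKAP2 (0.986) and TOMM70 (0.984). CKAP2 footprints were 45.0 and 87.3 RPKM with sh-circMYBL2 and 16.0 and 28.4 RPKM with sh-NC. For FTL they were SUPT6H (0.988), STK24 (0.977) and TOP1MT (0.976), and for FTH1 TGFBR1 (0.997), KMT2D (0.982) and CCND2 (0.979). The points of each gene share libraries, scaling and depth, and with 8 points picked from so many genes such values describe likeness and nothing more.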

How the data were processed

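Footprints and input RNA were measured in 8 MOLM-13 libraries, grouped by sample title. The deposited footprint values are RPKM and the deposited RNA values FPKM, both made by the authors. Per the submitters' processing notes the tools included HISAT2, Bowtie, cutadapt, DESeq2 and featureCounts, on hg38. The sources used here give neither versions nor a strand setting, so overlapping genes are not separated with certainty. Each value times gene length was a whole multiple of a step per library, fixed on microRNA genes (98.6% to 99.4% of their values whole within 0.02 reads), and this returned read numbers for every gene above 0. Footprint values are scaled to totals of 258923 and 1113399 (sh-circMYBL2 libraries a and b) and 82265 and 185632 (sh-NC libraries 1 and 2). The total of sh-NC library 2 is below its 300373 reads on genes. By reads on genes this library is deeper than sh-circMYBL2 library a, and by these totals it is shallower. Counting intervals and floors (3 reads) cover counting error only.

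Each table was fitted with limma 3.58.1 in R 4.3.3 (two-sided, eBayes with trend) after log2(value + 1), keeping genes whose mean reached 1. TE was fitted as the hairpin-by-assay interaction in all 8 libraries, with a single variance per gene for both assays, so its p-values may be too small for the noisier footprints. Benjamini-Hochberg adjustment covered all genes, with a threshold of 0.05. Log2 changes on this scale understate those of low genes. An exact permutation of 2 against 2 cannot give a p below 0.333. Read recovery and fits were also run on simulated data. The spread between replicates in them was assumed, so those runs do not show how the fits perform on these footprints. The 8 genes and all lists were chosen with earlier results of these data known. Named genes were the 8, every called gene of 4 iron lists or the 2 with the smallest p where none was called, ferritin pseudogenes, the 3 nearest patterns of FTH1, FTL and TFRC, and the highest marker of a list; some genes of the lists, although counted in them, are not reported here by name. Coordinates and sequences are RefSeq's, in GRCh38.p14, the same build as hg38.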

Additional observations from a re-analysis of the deposited data

How the results depend on the processing

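Alternatives were pseudocounts of 0.1 and 5, no filter or a mean of at least 5, quantile normalization, voom on recovered reads, eBayes without trend, each library left out, a replicate block for RNA, and, chosen after seeing the data, scaling to protein-coding reads. The 1 iron gene called higher in RNA became 0 with no filter, without trend, or with any library left out (0 to 0). The 1 called lower became 0 with either pseudocount, no filter, without trend, under protein-coding scaling or with any library left out (0 to 0), and 2 by voom. With the replicate block both became 0 (FTH1 -0.16, adjusted p = 0.104; NCOA4 0.20, adjusted p = 0.1). The block, and each RNA fit with a library left out, called 0 of all genes tested (3373, and 2610 to 2828, at an unadjusted p under 0.05), so these losses are not particular to the iron genes. The numbers are shared labels only (deviations of same-numbered RNA libraries correlated with r = 0.027), and no footprint or TE block could be made, since 2 footprint columns carry no number. Of the other iron genes, 2 higher in RNA became 0 with no filter or the block, and 1 without trend. They became 7 with a mean of at least 5 and 10 by voom. The 2 lower became 1 (no filter, without trend) and 0 (block). Over all genes the main fit called 615 higher and 494 lower of 12489. With no filter these were 56 and 41 of 29835, and with a mean of at least 5 they were 664 and 593 of 6263. By voom they were 1705 and 1561 of 12489, and without trend 279 and 201. The list counts were not tested against these. In TE the 5 higher became 8 and 0 (pseudocounts of 0.1 and 5), 0 (mean of at least 5), 1 (quantile), 0 (voom) and 0 to 23 with a library left out, and 0 lower became 0 to 6. Footprint and TE fits without a footprint library leave 1 library in a group, so their calls are not counted here. With a library left out, 2 to 4 iron genes lay below the median footprint over RNA with sh-NC. FTH1 turned to 0.92 in footprints and 1.08 in TE with a pseudocount of 0.1, and ran from -1.95 to 1.59 and from -1.79 to 1.75 with a library left out. FTL turned to 0.48 and 0.41 under quantile normalization and ran from -1.46 (0.01 without sh-circMYBL2 library b) to 1.18 and from -1.60 to 1.04. The cause of these shifts was not tested. TFRC, SLC11A2, ACO1, IREB2 and NCOA4 kept their footprint and TE direction under every alternative that gave a value. For TFRC, SLC11A2, ACO1 and IREB2 the footprint groups do not overlap. Leaving out a library therefore could not reverse their footprint direction, and those fits do not bear on it. Adding pseudogene rows moved the RNA log2 ratio of FTH1 to -0.15. Footprint depth limits every statement on FTH1, SLC11A2 and ACO1.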

Other observations

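Ratios of iron genes within a library do not depend on the scaling between libraries. The pairs below were picked after their values were seen, so they are values and not tests. Footprints per length of IREB2 (IRP2) over those of ACO1 (IRP1) were 9.79 and 9.68 with sh-circMYBL2 and 1.40 and 1.70 with sh-NC, resting on 3, 13, 2 and 7 reads of ACO1. The same ratio in RNA was 6.73 and 6.62 with sh-circMYBL2 and 7.37 and 7.06 with sh-NC. TFRC over ACO1 was 31.6 and 55.7 in footprints with sh-circMYBL2 and 10.1 and 7.94 with sh-NC, and 12.3 and 11.8, and 14.3 and 14.4, in RNA. TFRC over NCOA4 in footprints was 1.28 and 1.37 with sh-circMYBL2 and 1.81 and 1.03 with sh-NC.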
